A study of Homo sapiens with 16 samples.

Results

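Aminoacyl-tRNA synthetases were examined across 4 conditions of Caco-2 cells, an intestinal epithelial line derived from a human colon carcinoma. Members were all array genes whose probe description holds the words "tRNA synthetase", each taken by its brightest probe in the deposited log2 values, which gave 40 of 30982 gene names from 47 probes. Undifferentiated cells of 1 line were kept for 6 h in low-serum medium alone (MED-CTL) or in the same medium with the synthetic gliadin peptide p31-43 at 150 µg/ml, with pepsin- and trypsin-digested gliadin (PT-G), or with a blank preparation of pepsin and trypsin that had no substrate (PT). The study's methods state that pepsin and trypsin were heat-inactivated after the digestion, as checked by an activity assay with a trypsin substrate. PT-G and PT thus shared these heated enzymes, called the enzymes below, and only PT-G and p31-43 contained gliadin sequence. The concentrations of PT and PT-G are not given in the sources used here. Each condition had 4 arrays of RNA from independent experiments, and the 16 arrays fell into 4 runs (arrays dated alike) that each held 1 array of every condition. The study asked whether gliadin peptides act directly on transcription in epithelial cells.

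Aminoacyl-tRNA synthetases join each amino acid to its tRNA and so supply the ribosome with its substrates. Most amino acids have a pair of such enzymes encoded by separate nuclear genes, a cytosolic enzyme and a mitochondrial enzyme that charges the tRNAs used to translate the mitochondrial genome, while GARS and KARS serve both compartments. Several cytosolic synthetases are held together with scaffold proteins in the multisynthetase complex, and transcription of many cytosolic synthetase genes is known to rise when amino acids run short, through the factor ATF4.

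By their products, 21 members were cytosolic, 8 of them in the multisynthetase complex, and 16 were mitochondrial. The other 3 were AARSD1, an editing enzyme that clears wrongly charged alanyl-tRNA, the gene the array calls HARS2, whose current symbol is DTD1 and which encodes a D-tyrosyl-tRNA deacylase, and the transcript fragment THC2391797. A current symbol was found for 37 members by accession and for 2 by name, and is given in parentheses where it differs from the array's name. The mitochondrial cysteinyl enzyme CARS2 was no member, since the array describes its probe by another name. Its log2 difference from MED-CTL, looked up after the members' values were seen, was −0.05 under PT-G and −0.05 under PT. The files name no genome build for the probes, so probe positions are not given.

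Median array intensity ranged from 153 to 410 over local background medians of 48 to 65, and 27660 to 33947 spots per array lay well above background. All 40 members could be tested, and the probes of 39 lay well above background on all 16 arrays. The exception, THC2391797, did so on 5 arrays. Precision here is limited by the small number of arrays and, in the fit without a block, by differences between runs. Of 12 intestinal epithelial markers, 10 were above background on every array, with CDX1 and GPA33 the exceptions. Of the markers of other cell types, 3 of 5 for leukocytes, 3 of 5 for fibroblasts and 1 of 3 for endothelium were also above background on every array, while PTPRC, COL1A2 and CDH5 were above it on none. Summed over its list, marker intensity per array was 633000 to 810000 for epithelium, 1430 to 2900 for leukocytes, 1440 to 2850 for fibroblasts and 408 to 690 for endothelium, and the ranges of the 4 conditions overlapped in each list. The part of these signals in the results was not tested. As in any bulk sample, less RNA per cell and fewer cells that carry it cannot be told apart.

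Few synthetase genes passed against MED-CTL with either enzyme preparation, and none with p31-43, in the fit without a block. Under PT-G, 4 of 40 members passed a nominal p under 0.01 in limma, the threshold of the study's methods, 3 lower and 1 higher than MED-CTL, where 3.44% of all 40982 probes passed in either direction and 1.52% were lower. Under PT, 3 members passed, 2 lower and 1 higher, against 3.64% of all probes (1.84% lower). With p31-43 no member passed, against 0.388% of all probes, and 0 of 40 had a nominal p under 0.05 in limma. With an adjusted p under 0.05 over all probes, 2 members passed for PT-G, 1 for PT and 0 for p31-43, against 0.944%, 0.820% and 0% of all probes. In the comparison of the 8 arrays with PT or PT-G with the 8 arrays without either, 5 members passed the nominal threshold, 4 lower and 1 higher (6.46% of all probes, 3.43% lower), and 3 passed the adjustment (3.57% of all probes). The comparisons of PT-G and PT with MED-CTL share the MED-CTL arrays. The 5 members that passed anywhere were the mitochondrial TARSL1 (TARS2), AARSL (AARS2), MARS2 and HARSL (HARS2) and the cytosolic WARS (WARS1).

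TARSL1, the mitochondrial threonyl-tRNA synthetase, had the lowest log2 fold change of the 40 members for both PT-G and PT. Its log2 intensity on the arrays of replicates 1 to 4 was 11.33, 11.49, 10.75 and 11.44 in MED-CTL and 11.45, 11.39, 11.27 and 11.28 with p31-43. With PT it was 10.62, 10.45, 10.67 and 10.82, and with PT-G 10.68, 10.38, 10.17 and 10.42. The PT-G arrays lay below every MED-CTL and p31-43 array, while the PT arrays overlapped with the low MED-CTL replicate 3. The fold change (FC) was 0.559 for PT-G (log2 difference −0.84, SE 0.15, n = 4 arrays each, limma, adjusted p = 0.0156) and 0.655 for PT (log2 −0.61, SE 0.15, limma, adjusted p = 0.0888, past the nominal threshold). With p31-43 the FC was 1.07, with a log2 difference of 0.10 (95% interval −0.22 to 0.42). Within each of the 4 runs PT-G lay below MED-CTL, by between −1.01 and −0.57 on the log2 scale, and so did PT, by between −0.88 and −0.08. Leaving out single arrays in limma raised the adjusted p for PT-G to 0.0621 (MED-CTL replicate 2 left out) or 0.0559 (PT-G replicate 2 left out), while leaving out MED-CTL replicate 3 lowered that for PT to 0.00778.

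**Figure D1:**
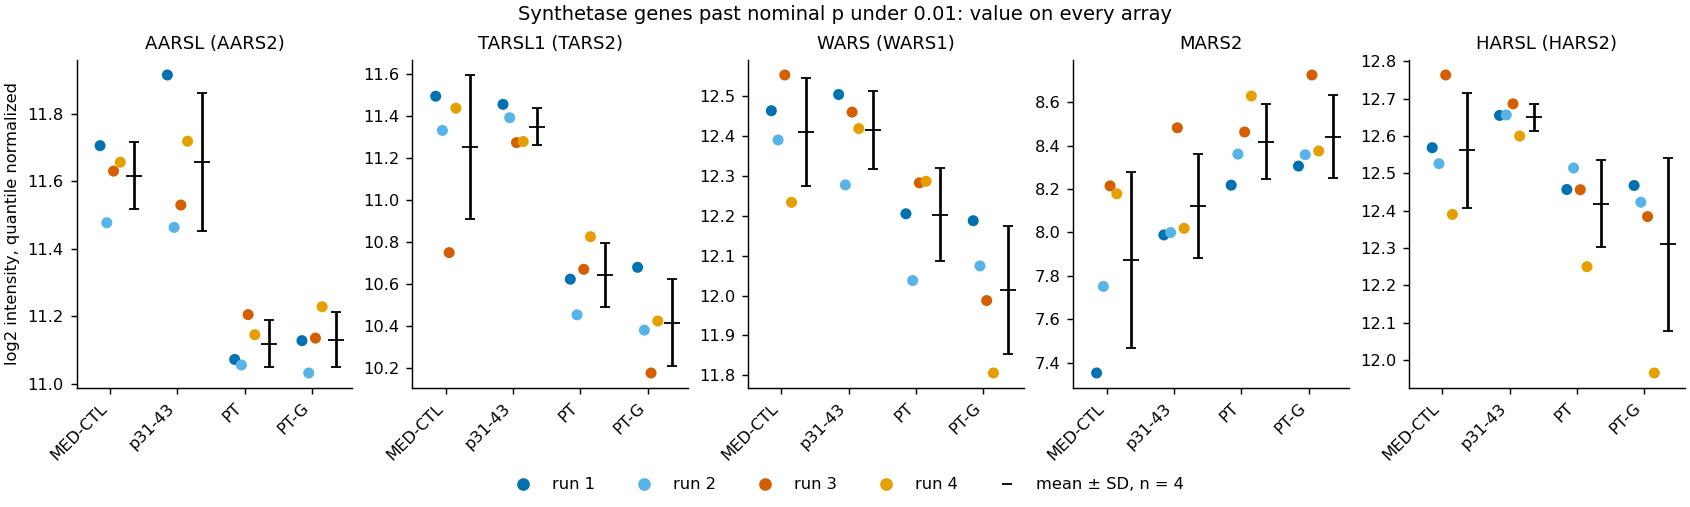
Quantile-normalized log2 intensity (vertical axes, which differ in range) of the 5 synthetase genes that passed a nominal p under 0.01, on each of the 16 arrays. Points are arrays coloured by run, and bars are the mean ± SD of 4 arrays per condition. For AARSL the 8 arrays with PT or PT-G lie at or below 11.23 and the other 8 at or above 11.46.

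To show what lies ahead of these genes, promoter sequence was read from RefSeq windows of GRCh38.p14, from 250 bases before to 50 bases after each start, which exist for 30 of the 40 members. Capitals mark matches, on either strand, to 4 motifs: the C/EBP-ATF core TGATGNAA through which ATF4 acts, the E-box CACGTG bound by MYC and its partners, the ETS motif CCGGAAG, and the NRF1 motif GCGCANGCG. The ETS and NRF1 motifs were added after the values were seen. These letters occur in 3.62%, 7.26%, 10.3% and 7.52% of all 35116 windows. The 250 bases before the start of TARS2 hold 1 ETS match, which begins 174 bases before the start:
TARS2, chr1:150487169-150487418, plus strand: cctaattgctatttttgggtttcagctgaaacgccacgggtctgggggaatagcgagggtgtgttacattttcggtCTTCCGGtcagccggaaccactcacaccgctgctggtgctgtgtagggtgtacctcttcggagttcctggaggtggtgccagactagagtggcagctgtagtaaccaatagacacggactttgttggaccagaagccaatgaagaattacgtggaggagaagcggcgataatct

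AARSL, the mitochondrial alanyl-tRNA synthetase, separated the arrays with and without the enzymes without overlap. Its log2 intensity on replicates 1 to 4 was 11.48, 11.71, 11.63 and 11.66 in MED-CTL and 11.92, 11.46, 11.53 and 11.72 with p31-43. It was 11.07, 11.06, 11.20 and 11.15 with PT and 11.13, 11.03, 11.14 and 11.23 with PT-G. The FC was 0.714 for PT-G (log2 −0.49, SE 0.09, n = 4 arrays each, limma, adjusted p = 0.0214) and 0.708 for PT (log2 −0.50, SE 0.09, limma, adjusted p = 0.0213), and for the 8 arrays with either against the 8 without it was 0.701 (limma, adjusted p = 0.000466). Its log2 difference with p31-43 was 0.04 (95% interval −0.16 to 0.24). The adjusted p in limma was over 0.05 when MED-CTL replicate 2 or 4 or PT-G replicate 1 or 2 was left out for PT-G (0.0524 to 0.0839), and when MED-CTL replicate 2 or 3 or PT replicate 1, 2 or 4 was left out for PT (0.0506 to 0.0830). Lower values with the enzymes held in all 4 runs, where PT-G lay between −0.58 and −0.43 from MED-CTL and PT between −0.63 and −0.42. The cytosolic alanyl enzyme AARS had log2 differences of −0.41 for PT-G and −0.31 for PT, with SE 0.29 for each, and did not pass (limma, adjusted p = 0.916 and 0.841).

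MARS2, the mitochondrial methionyl-tRNA synthetase, was the member that rose. Its log2 intensity was 7.75, 7.35, 8.21 and 8.18 in MED-CTL and 7.99, 7.9996, 8.48 and 8.02 with p31-43. With PT it was 8.22, 8.36, 8.46 and 8.63, and with PT-G 8.31, 8.36, 8.73 and 8.38. Every PT and PT-G array lay above every MED-CTL array, PT by a narrow margin, while p31-43 replicate 3 lay among the PT-G arrays. The FC was 1.48 for PT-G (log2 0.57, SE 0.18) and 1.46 for PT (log2 0.54, SE 0.18), both past the nominal threshold but not the adjustment over all probes (limma, adjusted p = 0.250 and 0.272). The nominal call for PT-G was lost without any 1 of 7 arrays, MED-CTL replicates 1 and 2, PT replicates 2 and 3 and PT-G replicates 2 to 4 (adjusted p = 0.309 to 0.627 in limma), that for PT without any 1 of 11 arrays, which were all but MED-CTL replicates 3 and 4, p31-43 replicate 3, PT replicate 1 and PT-G replicate 3 (adjusted p = 0.306 to 0.619 in limma), and that for the 8 arrays against 8 without 1 of 6, MED-CTL replicate 1, p31-43 replicates 1, 2 and 4, PT replicate 4 and PT-G replicate 3 (adjusted p = 0.152 to 0.187 in limma). With the replicate number as a block, as the pairing of the PT-G and MED-CTL arrays allows, the PT-G value passed (limma, adjusted p = 0.0323). The p31-43 value was 0.25 on the log2 scale (95% interval −0.14 to 0.64). The bases before the start of MARS2 hold an E-box 11 bases before it, an ETS match at 52, and NRF1 matches at 133, 27 and 26 bases before the start, the last a pair that overlap on opposite strands:
MARS2, chr2:197705119-197705368, plus strand: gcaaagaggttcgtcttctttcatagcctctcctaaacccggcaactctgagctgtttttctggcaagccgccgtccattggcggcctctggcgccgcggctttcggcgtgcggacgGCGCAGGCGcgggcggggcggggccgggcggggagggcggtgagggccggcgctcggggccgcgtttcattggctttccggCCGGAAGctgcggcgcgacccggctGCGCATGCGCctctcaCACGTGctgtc

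WARS, the cytosolic tryptophanyl-tRNA synthetase, known for its induction by interferon gamma, was lower with PT-G. Its log2 intensity was 12.39, 12.46, 12.55 and 12.23 in MED-CTL and 12.50, 12.28, 12.46 and 12.42 with p31-43. It was 12.20, 12.04, 12.28 and 12.29 with PT and 12.19, 12.07, 11.99 and 11.81 with PT-G. The PT-G arrays did not overlap with MED-CTL or p31-43, and the PT arrays did. Its FC was 0.760 for PT-G (log2 −0.40, SE 0.09, limma, adjusted p = 0.0775), which passed the nominal threshold, and passed the adjustment with the replicate number as a block (limma, adjusted p = 0.0324). For PT it was 0.866 (log2 −0.21, SE 0.09, limma, adjusted p = 0.543). Over the 8 arrays with PT or PT-G against the 8 without, the log2 difference was −0.30 (SE 0.07, limma, adjusted p = 0.0200). That adjusted p was over 0.05 in 3 of 28 alternatives, background-subtracted signal (0.216), median scaling (0.156) and an intensity trend (0.0713). Of the 157 bases between the starts of WARS1 and its divergent neighbour WDR25, an ETS match lies 25 bases before the WARS1 start:
WARS1, chr14:100376328-100376484, minus strand: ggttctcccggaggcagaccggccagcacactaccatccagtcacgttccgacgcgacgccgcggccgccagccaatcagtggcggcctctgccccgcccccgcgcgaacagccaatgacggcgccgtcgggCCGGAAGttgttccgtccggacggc

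HARSL, the mitochondrial histidyl-tRNA synthetase, passed the nominal threshold only in the comparison of all 8 arrays with the enzymes. Its log2 intensity was 12.53, 12.57, 12.76 and 12.39 in MED-CTL and 12.66, 12.66, 12.69 and 12.60 with p31-43. It was 12.46, 12.51, 12.46 and 12.25 with PT and 12.47, 12.42, 12.38 and 11.97 with PT-G. All 8 arrays with PT or PT-G lay below all p31-43 arrays, and the MED-CTL arrays ranged from among the former to above the latter. Over the 8 arrays against 8, the log2 difference was −0.24 (SE 0.08, limma, adjusted p = 0.126). For PT-G alone it was −0.25 (limma, adjusted p = 0.545), which passed the nominal threshold with the replicate number as a block (limma, adjusted p = 0.107). The call over 8 arrays against 8 was lost without any 1 of 9 arrays, MED-CTL replicates 1 to 3, p31-43 replicates 1 to 3 and PT replicates 1, 3 and 4 (adjusted p = 0.170 to 0.236 in limma). The cytosolic histidyl gene HARS starts nearby on the opposite strand and had a log2 difference of 0.04 over the same 16 arrays (95% interval −0.11 to 0.19, limma, adjusted p = 0.933). The 84 bases between both starts hold an ETS match near each end:
HARS2 to HARS1, chr5:140691371-140691454, plus strand: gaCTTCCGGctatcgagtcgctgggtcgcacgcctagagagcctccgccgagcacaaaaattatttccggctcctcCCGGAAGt

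Among the other mitochondrial members, none passed the nominal threshold in any comparison of the fit without a block. Of all 16, 13 had a log2 difference below 0 over the 8 arrays with PT or PT-G against the 8 without, with a median of −0.18, where the median of all probes was −0.003 and 51.1% of them lay below 0. Against MED-CTL alone, the medians of the 16 were −0.21 for PT-G, −0.15 for PT and 0.10 for p31-43. The values nearest the threshold were those of SARS2 (seryl), at −0.28 (SE 0.10, limma, adjusted p = 0.187), LARS2 (leucyl), at −0.22 (SE 0.08, adjusted p = 0.193), and WARS2 (tryptophanyl), at −0.34 (SE 0.125, adjusted p = 0.209). PARS2 (prolyl), VARSL (VARS2, valyl), FARS2 (phenylalanyl), RARSL (RARS2, arginyl), YARS2 (tyrosyl) and EARS2 (glutamyl) lay between −0.24 and −0.05. NARS2 (asparaginyl) and IARS2 (isoleucyl) were at 0.08 and 0.04. Blocks changed this. Over the 8 arrays against 8, SARS2 passed with the replicate number as a block (limma, adjusted p = 0.00875) and with the run as a block (adjusted p = 0.00745). WARS2 did so too (adjusted p = 0.0385 and 0.0159), while LARS2 then passed the nominal threshold but not the adjustment (adjusted p = 0.0627 and 0.0514). The pooled values also hold the p31-43 arrays. Against MED-CTL alone, SARS2 was at −0.22 for PT-G, −0.15 for PT and 0.18 for p31-43, and WARS2 at −0.31, −0.27 and 0.09. For PT-G or PT against MED-CTL, neither passed the nominal threshold with the replicate number or run as a block, while both did with the slide as a block. For PT against MED-CTL, VARSL and RARSL passed the nominal threshold with either block (limma, adjusted p = 0.0528 to 0.109). With the replicate number as a block, RARSL also passed for PT-G against MED-CTL (log2 −0.23, limma, adjusted p = 0.130), and EARS2 for p31-43 against MED-CTL (log2 0.28, limma, adjusted p = 0.915).

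Of the 21 cytosolic members, WARS alone passed in any comparison of the fit without a block. With blocks, DARS passed the nominal threshold for PT (replicate number, limma, adjusted p = 0.0796, or run, adjusted p = 0.0558) and AARS over the 8 arrays against 8 (run, limma, adjusted p = 0.0532). With the slide as a block, DARS passed it for PT-G, PT and the 8 arrays against 8 (limma, adjusted p = 0.0684, 0.051 and 0.0575). TARSL2 was then higher over the 8 arrays against 8 (log2 0.16, limma, adjusted p = 0.0359). Under array weights, FARSLB (FARSB) passed the nominal threshold for PT-G and PT (limma, adjusted p = 0.081 and 0.0897) and passed over the 8 arrays against 8 (limma, adjusted p = 0.0193). The median log2 difference of the 21 cytosolic members over the 8 arrays against 8 was −0.10. Of these 21, 14 lay below 0, where 51.1% of all probes did. The 8 members of the multisynthetase complex were DARS, EPRS, IARS, KARS, LARS, MARS, QARS and RARS. They carry the aspartyl, glutamyl-prolyl, isoleucyl, lysyl, leucyl, methionyl, glutaminyl and arginyl activities. In this pooled comparison all 8 had values below 0, between −0.21 and −0.01 with a median of −0.17, and none passed without a block. Against MED-CTL alone, 6 of the 8 lay below 0 for PT-G and 7 for PT, where 52.1% and 53.0% of all probes did. A second, dimmer probe of LARS was at 0.16 in the pooled comparison, against −0.04 for the probe used. The 13 free cytosolic members had a median of 0.02 and ranged from −0.39 (AARS) to 0.11 (TARSL2, the second cytosolic threonyl gene, now TARS3). RARS, the member with the highest mean signal, had log2 intensities of 15.87, 15.87, 16.17 and 15.71 in MED-CTL, 15.95, 15.75, 15.99 and 15.84 with p31-43, 15.85, 15.70, 15.85 and 15.90 with PT, and 15.65, 15.80, 15.89 and 15.74 with PT-G, and these ranges overlapped. The cytosolic threonyl enzyme TARS, the counterpart of TARSL1, had log2 differences of 0.04 for PT-G and −0.002 for PT.

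**Figure D2:**
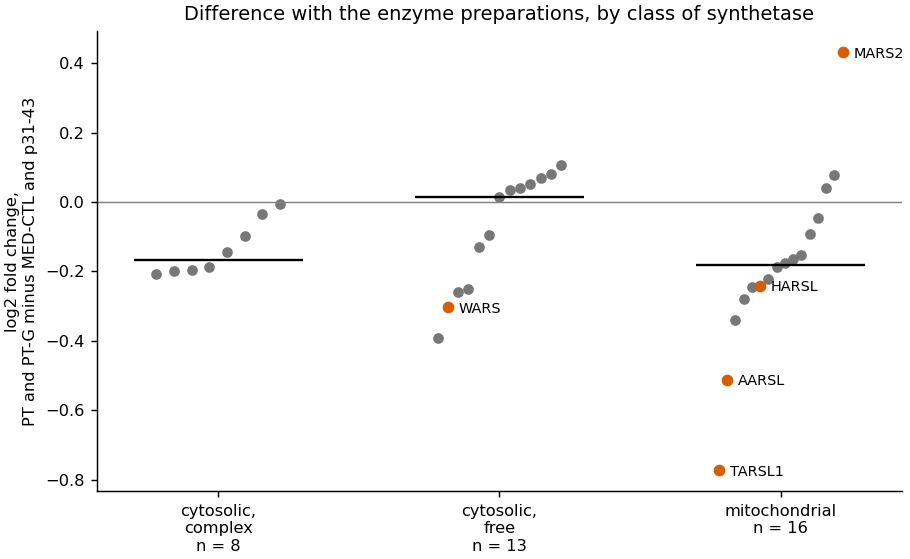
Log2 difference of the 37 cytosolic and mitochondrial members between the 8 arrays with PT or PT-G and the 8 with MED-CTL or p31-43, by class of enzyme (horizontal axis). Each point is a member, orange points passed a nominal p under 0.01, and black lines are class medians, −0.17, 0.02 and −0.18 from left to right.

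THC2391797, a transcript fragment and the member of lowest mean signal, had log2 intensities of 6.29, 6.17, 6.91 and 6.24 in MED-CTL, 6.10, 6.17, 6.22 and 6.16 with p31-43, 6.17, 6.21, 7.07 and 6.18 with PT, and 6.32, 6.14, 6.21 and 6.20 with PT-G. Its probe was not well above background on any p31-43 array and on 2, 1 and 2 of the MED-CTL, PT and PT-G arrays, so no fold is given for it, though it stays in medians over all 40 members. AARSD1 and the array's HARS2 (DTD1), which remove wrong amino acids from tRNA, had log2 differences of 0.04 and −0.03 for PT-G.

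PT-G and PT differed in no member at the nominal threshold, against 0.0903% of all probes, and 1 member, PARS2, had a nominal p under 0.05 (log2 −0.21, SE 0.09, limma). All 40 differences lay between −0.23 and 0.26 with a median of 0.00. For the 5 members that passed elsewhere, the 95% intervals of PT-G minus PT on the log2 scale were −0.55 to 0.09 for TARSL1, −0.19 to 0.21 for AARSL, −0.37 to 0.41 for MARS2, −0.39 to 0.01 for WARS and −0.34 to 0.12 for HARSL. A nominal p over the threshold does not show that both preparations acted alike.

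**Figure D3:**
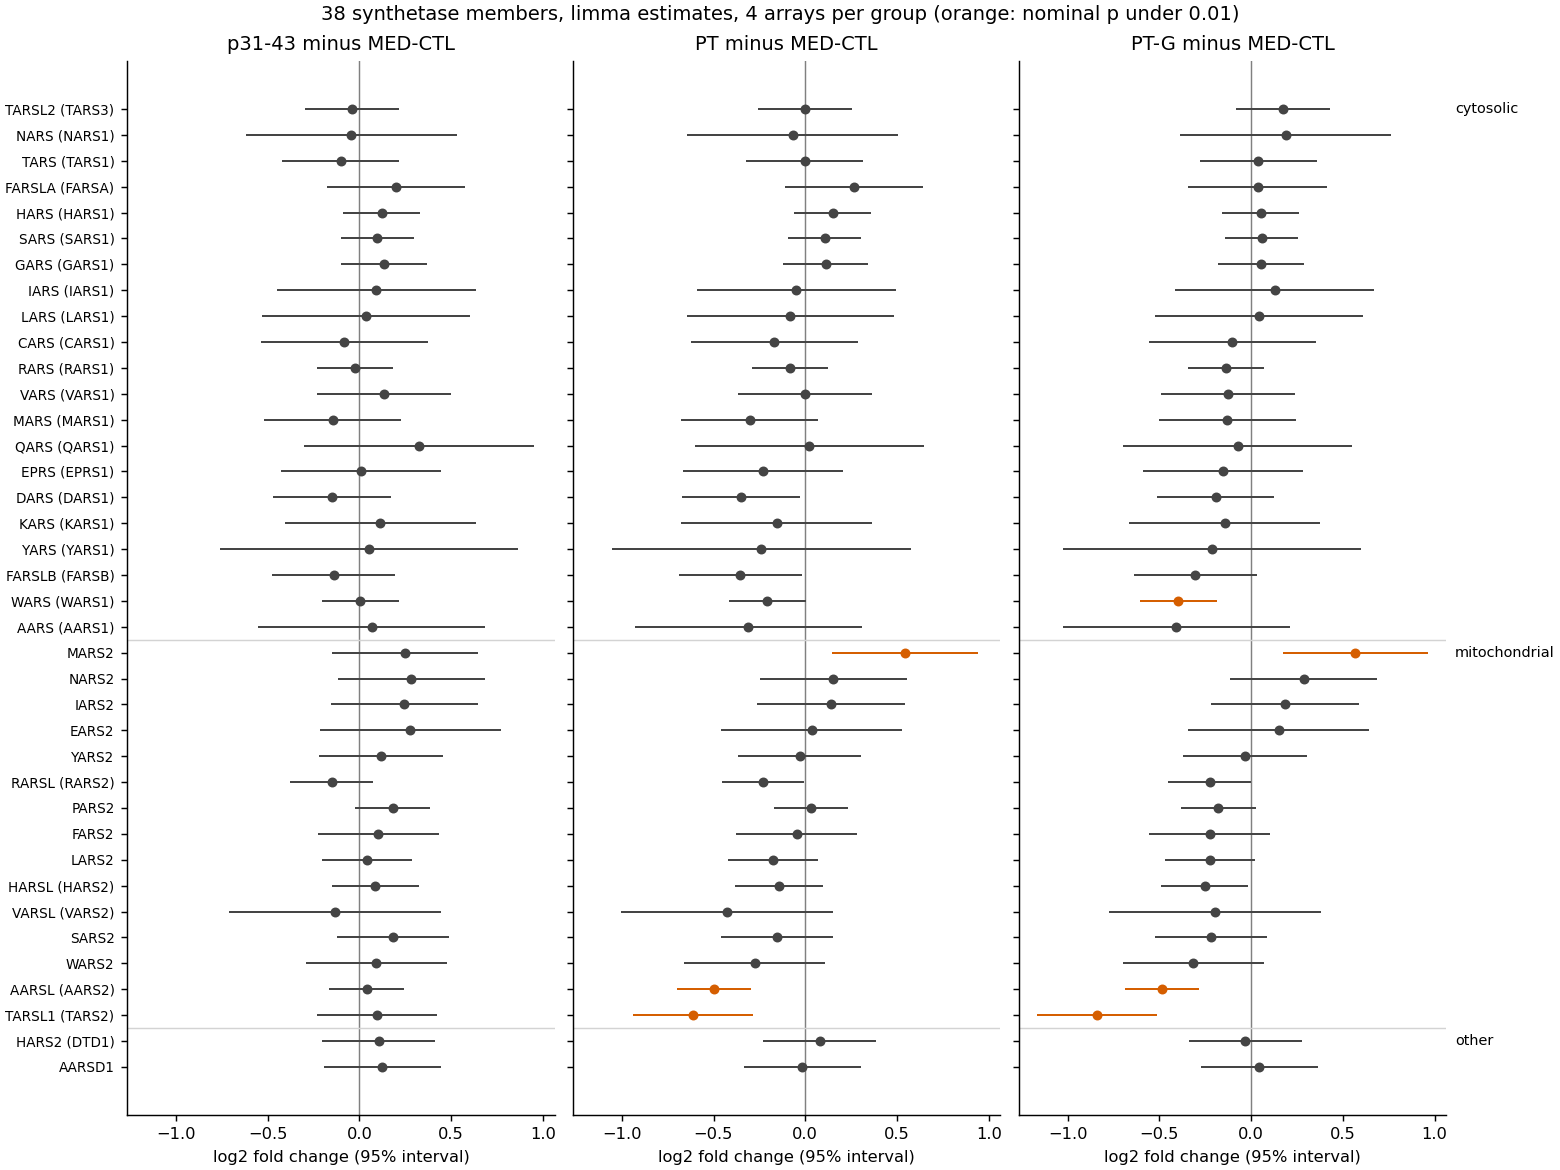
Log2 fold change against MED-CTL (horizontal axes, points with 95% intervals from limma) of 38 of the 40 members under p31-43, PT and PT-G, with 4 arrays per condition and members listed by class. THC2391797, whose probe was not well above background on most arrays, is not drawn. Orange marks a nominal p under 0.01, which no member has for p31-43, 3 have for PT and 4 for PT-G.

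For p31-43, log2 differences from MED-CTL ran from −0.15 (RARSL) to 0.32 (QARS) in the 39 members above background, with a median over all 40 of 0.09 where the median of all probes was −0.001. The median SE of a member in this comparison was 0.16. Of the 16 mitochondrial members 3 lay below 0, and of the 21 cytosolic members 8 did. PARS2, the mitochondrial prolyl enzyme, came nearest to the threshold at 0.18 (95% interval −0.02 to 0.38).

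Many members varied more between runs than between conditions. For 32 of 40 the range of the 4 run means was wider than that of the 4 condition means, as it was for 76.9% of all probes. YARS, the cytosolic tyrosyl enzyme, varied most, with run means of 11.59, 11.45, 11.10 and 10.38 and a range of condition means of 0.29. AARS followed, with a range of 0.88 between runs and 0.47 between conditions. The 8 members with the wider range between conditions were all 5 that passed the threshold together with LARS2, PARS2 and SARS2, a statement on the same values that gave the calls. Each run holds every condition, so the runs do not separate the conditions, but they widen the spread that the tests without a block use. Slides were less even. PT replicate 3 and p31-43 replicate 4 were the only arrays of slide 5, and had the highest median intensities, 410 and 380.5. Slide and condition are thus partly confounded for PT and p31-43.

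**Figure D4:**
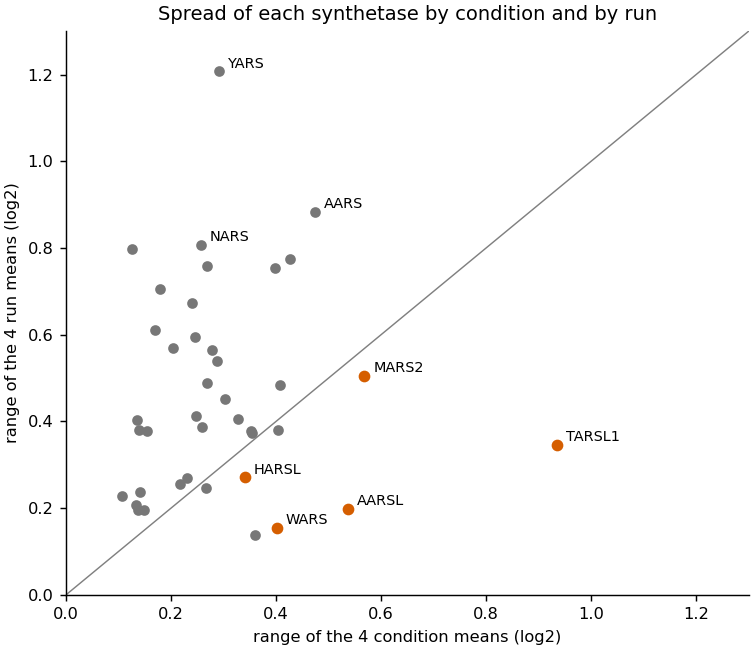
Range of the 4 run means (vertical axis) against the range of the 4 condition means (horizontal axis), both in log2 units, for the 40 members. Orange points passed a nominal p under 0.01 in some comparison, the line marks equal ranges, and YARS lies highest at 1.21.

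The C/EBP-ATF core occurred in 8 of the 30 members with a window (26.7%, against 3.62% of all windows), and 7 of these were cytosolic. A member counted if any of its windows matched, and 8 of the 30 have 2 windows, so these shares are in unlike units. The same holds for the other motifs. Since this is the motif through which a shortage of amino acids is known to act on synthetase genes, the 30 bases around it are shown with the core in capitals and the distance of its first base from the start:
AARS1 (187 before), chr16:70289675-70289704, minus strand: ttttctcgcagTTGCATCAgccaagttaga
CARS1 (2 before), chr11:3057407-3057436, minus strand: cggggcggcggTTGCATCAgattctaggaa
GARS1 (33 before), chr7:30594834-30594863, plus strand: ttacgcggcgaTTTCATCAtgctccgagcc
IARS1 (13 before), chr9:92293692-92293721, minus strand: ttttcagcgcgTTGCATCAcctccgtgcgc
MARS1 (4 before), chr12:57488053-57488082, plus strand: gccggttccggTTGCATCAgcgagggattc
NARS1 (15 after), chr18:57621804-57621833, minus strand: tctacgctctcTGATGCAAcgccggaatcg
TARS1 (3 after), chr5:33440956-33440985, plus strand: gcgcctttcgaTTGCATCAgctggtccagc
YARS2 (197 before), chr12:32756076-32756105, minus strand: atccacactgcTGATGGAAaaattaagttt

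None of these 8 genes passed in any comparison without a block. Their log2 differences from MED-CTL lay between −0.41 and 0.19 for PT-G and between −0.31 and 0.11 for PT, with a median of 0.002 for PT-G. The E-box occurred in 3 of the 30 members (10.0%), MARS2, IARS and EARS2, of which MARS2 alone passed. ETS matches occurred in 16 (53.3%, against 10.3% of all windows). These 16 held all 4 called members that have a window, but most of the 16 were not called. NRF1 matches occurred in 6 of the 30, of which MARS2 was called. Since the ETS and NRF1 motifs were added after the values were seen, their overlap with the calls is a description, and a link was not tested. A match is a description of letters and was not tested for binding.

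Of 30 genes of the amino acid response, 2 passed the nominal threshold for PT-G (higher) and 1 for PT (higher), and 3 over the 8 arrays against 8 (all higher), where 3.44%, 3.64% and 6.46% of all probes passed, so that 1 of 30 for PT is near the share of all probes. ATF3, a stress-induced transcription factor, rose by 1.14 on the log2 scale for PT-G (SE 0.14, limma, adjusted p = 0.00136) and by 0.87 for PT (SE 0.14, limma, adjusted p = 0.00824). SLC38A2, a transporter of neutral amino acids, was 0.83 higher for PT-G (SE 0.23, limma, adjusted p = 0.157), and TRIB3, an inhibitor of this response, was 0.55 higher over 8 arrays against 8 (limma, adjusted p = 0.0382). ATF4 itself was at 0.08 for PT-G and ASNS, asparagine synthetase and a classical target, at −0.19, and neither passed. Over the whole list the median was 0.03 for PT-G.

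Of the remaining translation genes, none of the 3 scaffold proteins of the multisynthetase complex passed (AIMP1 −0.31, AIMP2 −0.18 and EEF1E1 0.32 for PT-G). Of 10 elongation factors, GFM2, which recycles mitochondrial ribosomes, was lower for PT (log2 −0.43, SE 0.11, limma, adjusted p = 0.122), and the other 9 did not pass. Among 9 measured genes of tRNA editing, formylation, amidation and repair, QRSL1, a subunit of the amidotransferase that makes mitochondrial glutaminyl-tRNA, was lower over the 8 arrays against 8 (log2 −0.24, limma, adjusted p = 0.0238) and PTRH2, a peptidyl-tRNA hydrolase, was higher (log2 0.31, limma, adjusted p = 0.0783). MYC, an E-box factor that drives growth and translation genes, was 1.07 higher for PT-G (SE 0.27, limma, adjusted p = 0.0963), and of its 9 partners and targets none passed for PT-G. Over 8 arrays against 8, 2 of these 10 genes passed the nominal threshold as higher and 1 as lower, where 6.46% of all probes passed. One of the 2 higher genes also passed the adjustment, as 3.57% of all probes did, and the highest log2 difference in the list was 0.93. The MYC antagonist MNT was higher (log2 0.43, limma, adjusted p = 0.0822) and the MYC target ODC1 lower (log2 −0.22, limma, adjusted p = 0.126), and neither passed the adjustment.

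Of the 47 probes, 7 were left out because their gene had a brighter one (HARS, FARSLB, MARS, LARS, VARSL, PARS2 and AARSD1). None of these 7 passed the nominal threshold in any comparison. Their values were not always near those of the probes used. For PT, the left-out probe of LARS was at 0.30 (SE 0.59) against −0.08, and that of VARSL at −0.10 (SE 0.14) against −0.43. For PT-G, that of MARS was at −0.40 (SE 0.30) against −0.13, while that of FARSLB was at −0.35 against −0.30. The 5 called members each had a single probe, so no other probe on the array checks them.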

How the data were processed

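RNA of 16 Caco-2 samples, 4 per condition, was hybridised to 1-colour Agilent arrays. The authors deposited scanner intensity values (median and mean foreground, local background, a processed signal) and a log2 table, which equals the quantile-normalized log2 median foreground within 5e-09; the submitters' processing notes name limma. Of 43376 non-control spots per array, log2 median intensity was normalized with the quantiles method, spots marked as outliers (1774) were dropped and replicate spots of a probe averaged. The 40982 probes with at least 3 arrays per group entered 1 limma model (version 3.58.1, R 4.3.3, 12 residual degrees of freedom, 2-sided, Benjamini-Hochberg over all probes), after a check on simulated data. Deposited fold changes and p-values were not used.

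Members, gene lists and the pooled comparison were chosen with earlier results of these data known. Values on every array are given for members past a nominal p of 0.01 (at most 12) and for those of highest and lowest signal. Replicate numbers were checked for pairing through correlated deviations from group means: 0.395 to 0.857 for PT-G with MED-CTL and 0.262 to 0.707 for p31-43 with MED-CTL, all over 0.1, but −0.00542 to 0.411 for PT with MED-CTL. MED-CTL replicate 1 lies in run 2 and MED-CTL replicate 2 in run 1, so replicate numbers pair these arrays across runs. Paired by run instead, correlations with MED-CTL were 0.628 to 0.857 for PT-G, 0.538 to 0.707 for p31-43 and −0.00542 to 0.62 for PT. Runs were read from the arrays' names. Alternatives were normexp (offset 50), the processed signal (background subtracted) at its 75th percentile, a dim-probe filter, the log2 table as deposited, median scaling, blocks (replicate, run, slide, and batches of 2 runs, added later), array weights (statmod 1.5.0), only the groups compared, an intensity trend, the mean of a gene's probes, and leaving out each array. A member's and a marker's own values are not reported here, though both stayed in the fits and counts.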

Additional observations from a re-analysis of the deposited data

Results flagged for a closer look

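In 15 of 160 groups of 4 arrays (40 members in 4 conditions), involving 12 members, 1 array stood apart from the other 3 by more than Dixon's critical value (gap over range). For 4 independent normal values, chance alone gives that in about 1 group in 20. That rate does not carry over here, since each group holds 1 array of every run and all members share the same arrays. Arrays of replicate 3, all in run 3, were flagged most often. All values are log2 intensities, and the causes were not tested. For 2 of the called members, MARS2 was high on p31-43 replicate 3 (8.48, others 7.99 to 8.02) and PT-G replicate 3 (8.73, others 8.31 to 8.38), and HARSL was low on PT-G replicate 4 (11.97, others 12.38 to 12.47). Without that array, the PT-G difference of HARSL from MED-CTL was −0.14. DARS was high on p31-43 replicate 3 (15.48, others 14.95 to 14.96) and on PT-G replicate 3 (15.42, others 14.90 to 14.93). THC2391797 was high on MED-CTL replicate 3 (6.91) and PT replicate 3 (7.07), and TARS on PT replicate 1 (15.30, others 15.03 to 15.05). Low single arrays were those of HARS on PT replicate 1 (12.83), NARS on PT replicate 2 (13.19), the array's HARS2 (DTD1) on PT-G replicate 3 (14.23), QARS on PT-G replicate 4 (10.35, others from 11.37 up), RARSL on MED-CTL replicate 4 (14.21), VARS on MED-CTL replicate 3 (11.54) and SARS2 on p31-43 replicate 3 (11.32). Of these 12 members, MARS2 and HARSL alone passed a nominal p under 0.01 in the fit without a block.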

How the results depend on the processing

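Blocks, array weights, median scaling and left-out arrays also added members that the fit without a block did not call. The nominal calls of AARSL and TARSL1 for PT-G, for PT and for the 8 arrays with the enzymes against the 8 without kept direction and threshold in every alternative. The calls of MARS2, WARS and HARSL kept their direction, but the threshold was missed by WARS for PT-G with background-subtracted signal and median scaling and for 8 against 8 with background-subtracted signal, by MARS2 in 10 of 29 alternatives for PT-G, 16 of 29 for PT and 6 of 28 for 8 against 8, and by HARSL in 13 of 28 for 8 against 8. With adjustment, AARSL (8.96e-05 to 0.00661) and TARSL1 (2.06e-05 to 0.00628) stayed under 0.05 in all 28 alternatives for 8 against 8. WARS did so in 25 of 28, up to 0.216. For PT-G the adjusted p reached 0.242 for AARSL (9 of 29 alternatives not under 0.05) and 0.229 for TARSL1 (4 of 29), and for PT 0.175 for AARSL (9 of 29). The number of members past a nominal p under 0.01 (4 for PT-G, 3 for PT, 0 for p31-43, 0 for PT-G against PT and 5 for 8 against 8) was 2 for PT-G and 3 for 8 against 8 with background-subtracted signal. With the replicate block, which pairs MED-CTL replicates 1 and 2 across runs, it was 6 for PT-G, 6 for PT, 1 for p31-43 and 8 for 8 against 8. By replicate number, pairing was borne out only for PT-G and p31-43 with MED-CTL. By run, the correlations of PT with MED-CTL were 0.375, 0.62, −0.00542 and 0.411. Taking the run as a block gave 6 for PT, 1 for p31-43 and 9 for 8 against 8, and taking the slide gave 10 for PT-G, 7 for PT, 1 for p31-43 and 10 for 8 against 8. Array weights gave 5 for PT and 9 for 8 against 8, and batches of 2 runs as a block, chosen after seeing the data, 1 for p31-43. The share of all probes that passed in these alternative fits is not given, so the counts cannot be read as particular to the synthetases. The causes were not tested. Leaving out 1 array gave 3 to 6 members for PT-G, 2 to 5 for PT (5 without MED-CTL replicate 4), 0 for p31-43, 0 to 1 for PT-G against PT (PARS2 without PT-G replicate 1) and 3 to 7 for 8 against 8 (3 without p31-43 replicate 1 or MED-CTL replicate 1). A fit of only the groups compared is the full fit for 8 against 8 and gave no further value there.

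Signs turned only for differences near 0 that were not called. For p31-43 against MED-CTL, the log2 fold change of WARS was −0.0027 with normexp, −0.035 when the slide was a block and −0.0032 under array weights. For PT-G against PT, that of MARS2 was −0.019 with background-subtracted signal, −0.081 when the slide was a block and −0.0040 under array weights, and that of AARSL −0.000603 under array weights. Leaving out 1 array gave, for p31-43, −0.054 to 0.053 for WARS, −0.047 to 0.104 for AARSL and −0.071 to 0.177 for TARSL1, and for PT-G against PT −0.071 to 0.094 for MARS2, −0.021 to 0.044 for AARSL and −0.166 to 0.0054 for HARSL. Median scaling put the median of all probes for PT at −0.11, against −0.01 after quantile normalization. The members' median stayed between −0.13 and −0.04 for PT and between −0.16 and −0.06 for PT-G over all alternatives.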
